A study of Mus musculus with 16 samples.

Results

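The genes of voltage-gated calcium channels were followed in ear biopsies of 8 ageing mice. The set is the 10 Cacna1 genes, each of which encodes a pore-forming alpha subunit, found by gene symbol among the 45706 genes of the deposited counts table. Of the 10 genes, 7 passed the filter on low counts, as did 21526 genes of the table in all. The family was chosen by a rule that already used the contrast of 24 against 30 months and the link of Cacna1s to muscle, so the members' values in both are a description. Counts of members that a fit across all genes called stand beside the share of all genes called, and nothing is read from them.

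The animals were 8 males of C57Bl/6J, a common inbred laboratory line. Their ears were clipped in life with a die cutter, once at 24 months and again, in the second ear, at 30 months. This gave 8 libraries at each age in 8 within-animal pairs, named by mouse number (13, 14, 21, 29, 43, 50, 64 and 75). The labels name no treatment, call the ages young and old and give exact ages of 23.8 to 24.4 and 29.0 to 30.1 months, with 5.0 to 6.3 months between the clips of an animal. The later biopsy always came from the other ear, so age and ear cannot be told apart. The design asks what changes in the same animal late in life.

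Voltage-gated calcium channels open when the membrane depolarises and let calcium into the cell. The alpha subunit forms the pore and senses the voltage, while beta, alpha2delta and gamma subunits set its amount at the surface and its gating. The family is divided into L-type channels (Cacna1s, Cacna1c, Cacna1d and Cacna1f), the P/Q-, N- and R-type channels of nerve endings and endocrine cells (Cacna1a, Cacna1b and Cacna1e), and T-type channels that open at low voltage (Cacna1g, Cacna1h and Cacna1i). In skeletal muscle the Cacna1s channel is the voltage sensor that triggers the calcium release channel Ryr1, the step known as excitation-contraction coupling.

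The libraries held 22967222 to 36162431 reads on genes (median 28922265). The tissue label, skin, was matched by keratinocyte genes, which summed to 20716 to 27484 CPM (reads per 1000000 reads on genes, with TMM library sizes) at 24 months and to 18209 to 28383 at 30 months, although Flg was listed at a mean of 0.0347 and 0.0123 CPM. Skeletal muscle genes were also plentiful and uneven. The 20 genes of the muscle list summed to 1508.5 to 15213 CPM at 24 months and to 2199.5 to 11759 at 30 months. Genes of neuron cell bodies were low, at 10.5 to 20.4 CPM at 24 months and 8.93 to 19.2 at 30 months for the 8 genes together, most of it Stmn2, and 4 of the 8 did not pass the filter. In such mixed tissue, fewer cells of a type and less RNA per cell cannot be told apart.

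Per kilobase of exon, Cacna1g and Cacna1s were the highest members and Cacna1i, Cacna1f and Cacna1b were close to 0. Levels between genes are compared here in RPKM, CPM divided by the exon length in kilobases. Cacna1g had a median of 3.83 RPKM over the 16 libraries (2.48 to 5.22) and Cacna1s of 3.22 (1.15 to 13.6). These neighbours do not differ beyond their spread, since Cacna1g was above Cacna1s in 10 of 16 libraries. Cacna1e followed at 0.649 RPKM, and Cacna1s was above it in all 16 libraries. Cacna1e, Cacna1d (0.603) and Cacna1a (0.471) overlapped in range, with Cacna1e above Cacna1d in 10 libraries and Cacna1d above Cacna1a in 13. Cacna1a was above Cacna1c (0.218) in all 16 libraries, whereas Cacna1c exceeded Cacna1h (0.197) in 12. With coding length in place of exon length the order of the medians was the same, but Cacna1s was above Cacna1e in 12 libraries and Cacna1a above Cacna1c in 11, so neither separation held.

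**Figure D1:**
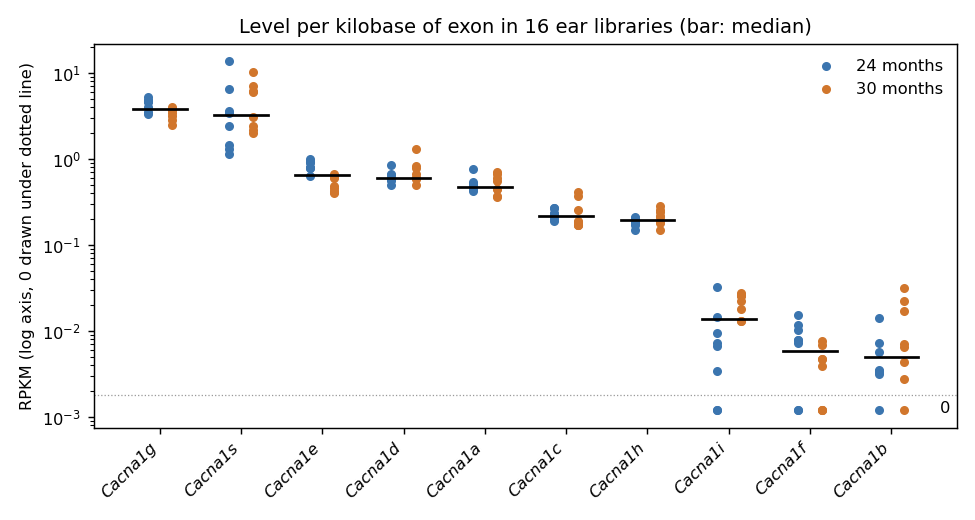
Level of the 10 Cacna1 genes in RPKM (log axis, values of 0 under the dotted line), with 1 point per library, the ages in separate colours and the median of 16 libraries as a bar. Cacna1g and Cacna1s lie at the top with overlapping points, and Cacna1i, Cacna1f and Cacna1b lie below all points of the other 7 genes.

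Between 24 and 30 months Cacna1e was lower in all 8 mice and Cacna1g in 6 of 8, while Cacna1h was higher in 6 of 8. Cacna1s went up or down with the RNA of skeletal muscle genes in the biopsy. Of the other tested members, Cacna1a was higher in 5 mice, Cacna1c in 3 and Cacna1d in 4. None of the 7 tested members had an adjusted p under 0.05 in edgeR's paired quasi-likelihood fit, which has a term for each mouse (0.00% of the 21526 genes, or 0 genes). At an unadjusted p under 0.05 there were 2 members, Cacna1e and Cacna1g, both lower, beside 7.18% of all genes in that direction (1546 genes) and 4.86% that were higher (1047 genes), 2593 in all. DESeq2's Wald test, which called 1.06% of all genes (228), called 1 member, Cacna1e. No member had CPM ranges that did not overlap between the ages (0.195% of all genes), and 1 member, again Cacna1e, moved the same way in all 8 mice (2.77% of all genes). Because the members were selected on this contrast, nothing is read from these counts. The median log2 change was 0.01 over the 7 members and 0.01 over all genes, and the median size of the change was 0.19 and 0.12.

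**Figure D2:**
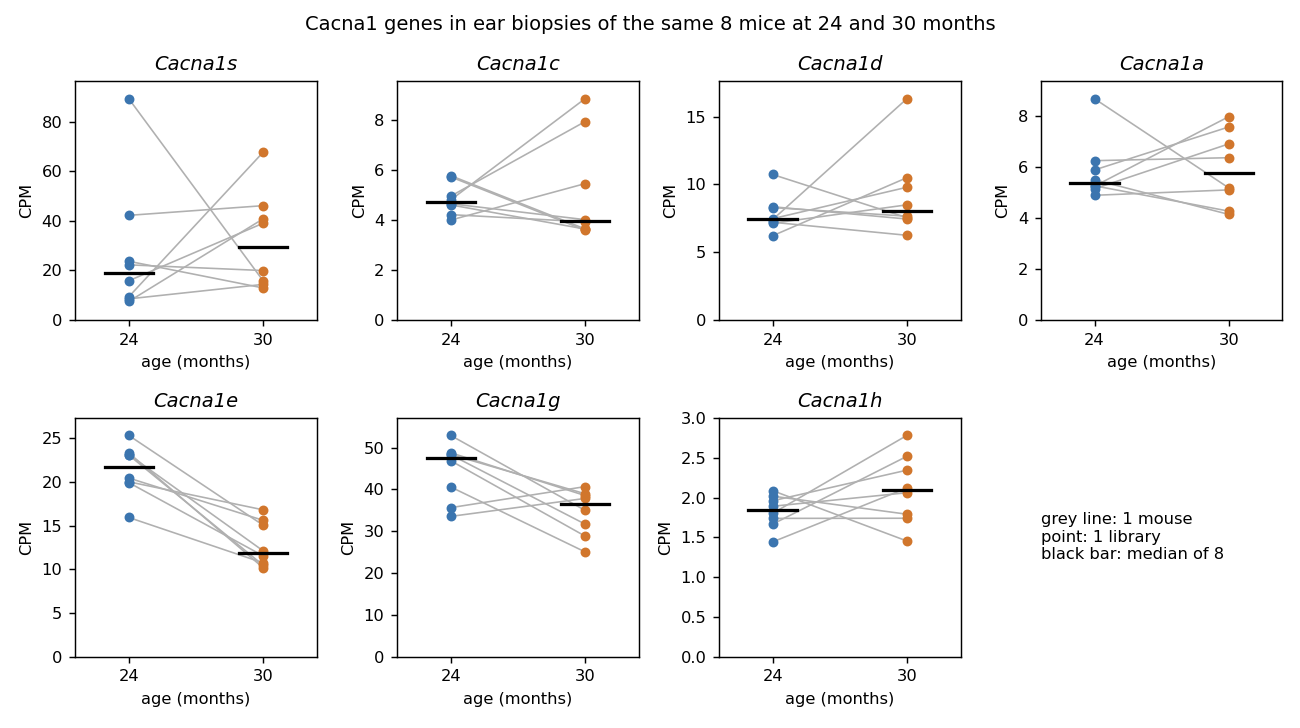
CPM of the 7 tested Cacna1 genes at 24 and 30 months, with 1 point per library, a grey line joining the biopsies of a mouse and a black bar at the median of 8. All 8 lines of Cacna1e fall, from a median of 21.8 to 11.8 CPM, while those of Cacna1s cross.

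Cacna1s, the L-type channel of skeletal muscle, lies on the plus strand of chromosome 1 (ENSMUSG00000026407, GRCm38, 136052750 to 136119822). The sequence before its first annotated exon is shown because this gene followed muscle RNA most closely of the family. It runs from the start of the 250-base RefSeq promoter window to the base before the first GENCODE exon, and the last 61 bases of that window are left out. Capitals mark E-boxes, the letters CANNTG that muscle-determining factors such as MyoD are known to bind, searched on both strands.

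Cacna1s, GRCm38.p6, plus strand, chr1:136052561-136052749: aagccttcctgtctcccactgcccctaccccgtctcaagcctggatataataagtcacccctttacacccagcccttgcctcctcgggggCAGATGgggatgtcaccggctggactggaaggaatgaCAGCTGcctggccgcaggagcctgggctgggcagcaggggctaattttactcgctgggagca

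The 2 E-boxes begin 160 and 123 bases before the RefSeq start site, and the second, CAGCTG, reads the same on both strands. An E-box is found in 66.2% of all 32851 such windows and CAGCTG, which is also counted as an E-box, in 13%. These matches are a description of the letters alone. RefSeq windows were matched for 7 of the 10 members. E-boxes are not particular to Cacna1s among them. Cacna1f has 3 in its window, and Cacna1b, Cacna1c, Cacna1d and Cacna1i have at least 1 window with an E-box. CAGCTG is also found in windows of Cacna1b and Cacna1d. Cacna1e has 0 E-boxes. The MEF2 site, another motif searched, had 0 matches in the Cacna1s window and 0 in those of the other members. It is found in 3.2% of all windows.

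Cacna1s varied more than any other tested member, 11.9-fold between its lowest and highest library. At 24 months it ranged from 7.52 CPM (mouse 21) through a median of 19.1 to 89.2 (mouse 43). At 30 months it ranged from 12.96 CPM (mouse 29) through 29.5 to 67.6 (mouse 13). The ages overlapped widely, and the highest and lowest libraries of all were both at 24 months. In mouse 43 Cacna1s went from 89.2 to 15.9 CPM, whereas in mouse 13 it went from 9.41 to 67.6 and in mouse 21 from 7.52 to 40.8. It was higher at 30 months in 5 of 8 mice. The fitted log2 change was 0.51 (standard error 0.54), with changes of single mice from -2.49 to 2.84. It was 0.90 without mouse 43 and 0.18 without mouse 13, and it turned to -0.13 with the muscle index as a covariate.

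The muscle index, the mean log2 CPM of the 20 muscle genes, ranged from 4.94 to 8.84 at 24 months and from 5.45 to 8.29 at 30 months. Cacna1s lay close to a line on it at both ages. Across the 8 mice Pearson's r was 0.99 and Spearman's rho 1 at 24 months, and r was 0.93 and rho 0.81 at 30 months. Without the 2 mice farthest from the median of the index, r was 0.98 (mice 43 and 50 left out) and 0.96 (mice 13 and 43 left out). These are descriptions with no p, since the rule names the relation. The changes within mice went the same way for Cacna1s and the index in 8 of 8 mice, with an r of 0.98 over 8 mice and a slope of 0.82 log2 CPM of Cacna1s per unit of the index. Cacna1s minus the index, on the log2 scale, ranged over 1.14 units in the 16 libraries, against 3.56 for Cacna1s itself, and was higher at 30 months in 1 of 8 mice. The difference takes a slope of 1, above the 0.82 of the changes, so an uneven index can move it. The index rose in 5 of 8 mice. The difference also fell in mice where the index fell. In mouse 29 Cacna1s changed by -0.87 while the index went from 6.46 to 6.30. In mouse 75 Cacna1s changed by -0.16 while the index went from 6.31 to 6.25. Whether Cacna1s fell relative to muscle RNA was not tested, and the 1 of 8 is not read as such a fall.

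**Figure D3:**
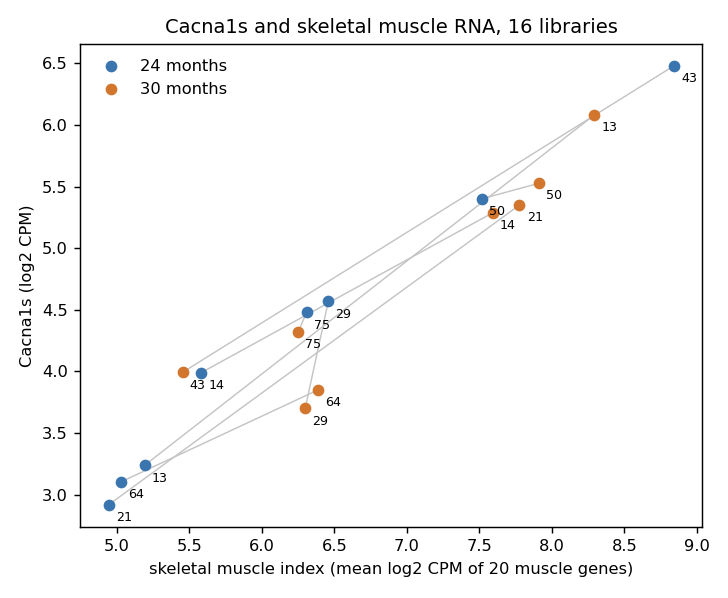
Cacna1s in log2 CPM against the skeletal muscle index (mean log2 CPM of 20 genes), with 1 point per library, labelled by mouse and coloured by age, and a grey line joining the biopsies of a mouse. The points of both ages lie along 1 band, and mouse 43 at 24 months and mouse 13 at 30 months lie at its upper end.

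The partners of Cacna1s in muscle were compared with it per kilobase of exon. Ryr1, the calcium release channel, ranged from 49.8 to 412.7 CPM, 8.28-fold, but Cacna1s stayed at 45.7% to 72.4% of its level per length (median 67.9%), 1.58-fold. Scn4a, the sodium channel of muscle, ranged 8.84-fold, and its ratio with Cacna1s 1.49-fold. For Ttn, the giant sarcomere protein titin, the range was 8.42-fold and that of the ratio 1.59-fold. So the ratios to these 3 genes varied far less than the genes. The ratio to Acta1, skeletal actin, varied 1.95-fold, while Acta1 ranged 14.2-fold. Myh4, the fastest myosin heavy chain, varied most of the 10 partners compared, 73.7-fold, and its ratio with Cacna1s varied 13.6-fold. For the subunits that share the muscle channel complex, the ratio to Cacna1s varied 3.78-fold for the beta subunit Cacnb1, which itself ranged 3.26-fold. The ratio varied 2.65-fold for the gamma subunit Cacng1, which ranged 10.5-fold. For the alpha2delta subunit Cacna2d1 it varied 3.82-fold, while the gene ranged 4.70-fold. Stac3, an adaptor that the muscle channel needs, varied 3.10-fold in its ratio and ranged 4.70-fold.

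The genes whose log2 CPM followed that of Cacna1s most closely over the 16 libraries were Neb (nebulin of the thin filament, r = 0.99), Hrc (a calcium-binding protein of the sarcoplasmic reticulum, 0.99), Scn4a (0.99), Usp13 (0.99) and Eef1a2 (an elongation factor of muscle and neurons, 0.99). Of the 50 genes most like Cacna1s, 12 belong to the muscle and excitation-contraction coupling lists, and of the 50 most like each of the other 6 tested members, 0 do. These lists hold only 20 and 15 of the 21526 genes tested. A count of 0 is therefore close to the share over all genes and is no result about those members. The 16 libraries come in pairs from 8 mice, so these values are a description.

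Cacna1c, the L-type channel of heart, smooth muscle and neurons (ENSMUSG00000051331, chromosome 6, 118587240 to 119196418), was low. It had 3.999 to 5.78 CPM at 24 months (median 4.73) and 3.60 to 8.85 at 30 months (median 3.97). The spread widened through mice 50 and 21, at 8.85 and 7.93 CPM, and 5 of 8 mice were lower at 30 months. The fitted log2 change was 0.01 (standard error 0.19). The 3 genes most like Cacna1c were Eml1, Sec16b and Rian (r from 0.91 to 0.92). Smooth muscle and pericyte genes summed to 205.8 to 391.1 CPM at 24 months and 203.4 to 446.8 at 30 months.

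Cacna1d, the L-type channel known from inner hair cells and endocrine cells (ENSMUSG00000015968, chromosome 14, 30039939 to 30491455), had 6.22 to 10.7 CPM at 24 months (median 7.44) and 6.25 to 16.3 at 30 months (median 8.08). The highest value was that of mouse 50 at 30 months, and 4 mice were higher and 4 lower. The log2 change was 0.19 (standard error 0.18), and 0.06 without mouse 50. Cacna1d shares 589 exon bases with Chdh on the opposite strand, a gene with 35978 reads over the 16 libraries. The library kit does not mark strand, so reads of this stretch cannot be told apart. Whether counting used strand is not given in the sources used here. The genes most like it were Man2b1 and Hgsnat, enzymes of the lysosome (r = 0.94 and 0.92), and Gm15930 (0.92).

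Cacna1f, the L-type channel of photoreceptors (ENSMUSG00000031142, chromosome X, 7607083 to 7635196), did not pass the filter. It had 0 to 5 reads per library at 24 months and 0 to 2 at 30 months, 17 and 7 reads in all, and was at 0 in 2 and 3 libraries. A count of 0 allows up to 3 reads, which is 0.0826 to 0.128 CPM in these libraries, counting error only.

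Cacna1a, the P/Q-type channel of nerve endings, including those on muscle (ENSMUSG00000034656, chromosome 8, 84388440 to 84640246), had 4.88 to 8.66 CPM at 24 months (median 5.37) and 4.14 to 7.96 at 30 months (median 5.76). The highest library was that of mouse 43 at 24 months, which was also the library richest in muscle RNA. In 5 of 8 mice Cacna1a was the higher at 30 months, and its log2 change was 0.01 (standard error 0.15). In all 8 mice its change had the same sign as that of the muscle index. This count was also 8 for Cacna1s, 6 for Cacna1c, 5 for Cacna1h, 3 for Cacna1e, 3 for Cacna1g and 1 for Cacna1d. The share of all genes with the same sign in 8 mice is not given here, so nothing is read from these counts. The 3 genes most like Cacna1a were Gm5507, 6430571L13Rik and Gm3695 (r from 0.92 to 0.93).

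Cacna1b, the N-type channel of sensory and sympathetic nerve endings (ENSMUSG00000004113, chromosome 2, 24603887 to 24763152), had 0 to 10 reads per library and did not pass the filter. Its reads summed to 12 at 24 months and 26 at 30 months, of which 10 were in mouse 50 and 6 in mouse 43.

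Cacna1e, the R-type channel of neurons and endocrine cells (ENSMUSG00000004110, chromosome 1, 154390731 to 154884501), was the member with the most even change. It had 15.9 to 25.3 CPM at 24 months (median 21.8) and 10.2 to 16.8 at 30 months (median 11.8). The ranges met only through mouse 29, whose 15.9 CPM at 24 months lay below the 16.8 of mouse 14 at 30 months. Within mice the log2 change ran from -1.19 (mouse 75, from 23.3 to 10.2 CPM) to -0.25 (mouse 14, from 20.03 to 16.8 CPM). The fitted log2 change was -0.75 (standard error 0.11), or 0.595 times the level at 24 months. It lay between -0.82 and -0.68 with any 1 mouse left out and was -0.81 with the muscle index as a covariate. These values belong to the contrast the family was chosen on and support nothing further.

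Endothelial, cartilage, pigment cell and fibroblast genes differed in value between the ages beside Cacna1e, and their part in its change was not tested. Of the 6 endothelial genes, 6 had log2 changes above 0 and 5 were higher at an unadjusted p under 0.05 (4.86% of all genes), with a median log2 change of 0.59 and sums of 95.8 to 139.6 CPM at 24 months and 102.5 to 288.4 at 30 months. Of the 8 cartilage genes, 7 were tested, 0 had a change above 0 and 5 were lower at an unadjusted p under 0.05 (7.18% of all genes), with sums of 112.5 to 205.0 and 88.9 to 149.1 CPM. Of the 7 pigment cell genes, 0 had a change above 0 and 1 was lower at that level, with sums of 77.7 to 161.7 and 27.5 to 103.6 CPM. That count is close to the background. The median log2 change was -0.46, and the largest fall was in mouse 29, whose mean log2 CPM went from 3.33 to 0.62. Of the 6 fibroblast genes, 1 had a change above 0 and 0 were past an unadjusted p of 0.05 in edgeR, with a median log2 change of -0.42. The genes of myelinated nerve, in contrast, summed to 499.0 to 686.1 CPM at 24 months and 525.4 to 746.8 at 30 months. For none of these genes was the adjusted p under 0.05 in edgeR.

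The genes most like Cacna1e over the 16 libraries were Pde1c, a calmodulin-dependent phosphodiesterase (r = 0.94), P2rx2, an ATP-gated channel (0.91), and Cryl1 (0.85). After the age means were removed, r was 0.85, 0.73 and 0.55. Pde1c (log2 change -0.71) and P2rx2 (-0.93) were lower in 8 of 8 mice and Cryl1 (-0.46) in 7 of 8, values that come from the same 16 libraries as the likeness.

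Cacna1g, the T-type channel known from pacemaking neurons and heart (ENSMUSG00000020866, chromosome 11, 94408391 to 94474198), was above Cacna1s, the next member, in CPM as well in 10 of 16 libraries. It had 33.6 to 52.9 CPM at 24 months (median 47.6) and 25.1 to 40.7 at 30 months (median 36.4). Mice 43 and 50 had the lowest levels at 24 months and were the mice in which it did not fall in value. The log2 change was -0.36 (standard error 0.12), between -0.44 and -0.30 with any 1 mouse left out, and -0.28 with the muscle index as a covariate. Its closest genes were Prlr, the prolactin receptor (r = 0.94, log2 change -0.29), Gpr153 (0.89, -0.29) and Gas1 (0.89, -0.21).

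Cacna1h, the T-type channel known from sensory neurons (ENSMUSG00000024112, chromosome 17, 25374285 to 25433783), had 1.44 to 2.09 CPM at 24 months (median 1.85) and 1.46 to 2.78 at 30 months (median 2.09), from 34 to 101 reads per library. It was higher in 6 of 8 mice, with a log2 change of 0.19 (standard error 0.15). Its exons share 158 bases with Tpsg1, a mast cell gene on the other strand. The genes most like it, Foxs1, Col23a1 and Zfp414, reached an r of 0.80 to 0.82.

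Cacna1i, the T-type channel of thalamic neurons (ENSMUSG00000022416, chromosome 15, 80287238 to 80398279), had 0 to 9 reads per library at 24 months and 3 to 8 at 30 months and did not pass the filter. The reads summed to 21 and 49, with more CPM at 30 months in 7 of 8 mice. At so few reads a change was not detectable as such.

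**Figure D4:**
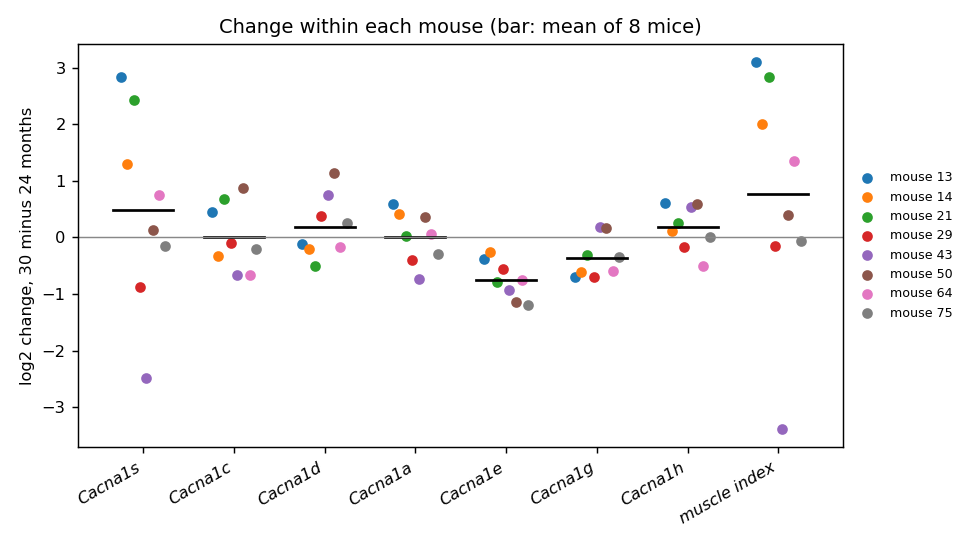
Log2 change from 24 to 30 months within each of the 8 mice (1 colour per mouse, bar at the mean) for the 7 tested Cacna1 genes and for the skeletal muscle index. The points of Cacna1s spread from -2.49 to 2.84 in the order of those of the index, while all 8 points of Cacna1e lie below 0.

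Whether the other members followed muscle RNA was tested over the 8 mice at each age, 12 relations in all. None had an adjusted p under 0.05 (exact two-sided permutation tests, Benjamini-Hochberg over the 12 relations), and 5 had an unadjusted p under 0.05. The share of all genes at that unadjusted level is not given here, so nothing is read from the count of 5. Cacna1a had positive correlations with the index at both ages. At 24 months its r was 0.77 (exact permutation p = 0.0349, adjusted 0.0838) and rho 0.48 (exact permutation p = 0.243), but r was -0.11 without mice 43 and 50. It was 0.26 without mouse 43 alone and 0.81 without mouse 50 alone, so the relation rests on mouse 43. At 30 months r was 0.86 (exact permutation p = 0.0152, adjusted 0.0609), rho 0.81 (exact permutation p = 0.0218), and r 0.95 without mice 13 and 43. Other lists were averaged in the same way. For smooth muscle and pericyte genes the r of Cacna1a was 0.83 at 24 months and 0.65 at 30 months. For fat cell genes it was 0.79 and -0.23. At 24 months mouse 43 also had the highest smooth muscle and pericyte mean (3.59) and the highest fat cell mean (4.46). These r values therefore cannot tell which list Cacna1a went with at 24 months.

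Cacna1g, Cacna1h and Cacna1d had negative correlations with the index at 24 months. For Cacna1g r was -0.87 (exact permutation p = 0.00652, adjusted 0.0510), rho -0.76 (exact permutation p = 0.0368) and r -0.65 without mice 43 and 50. For Cacna1h r was -0.85 (exact permutation p = 0.00851, adjusted 0.0510), rho -0.69 (exact permutation p = 0.0694) and r -0.28 without those mice. For Cacna1d r was -0.77 (exact permutation p = 0.0263, adjusted 0.0790), rho -0.81 (exact permutation p = 0.0218) and r -0.73 without them. At 30 months the values were -0.18 for Cacna1g, 0.70 for Cacna1h (exact permutation p = 0.0589) and -0.07 for Cacna1d, and the difference between the ages was not tested. Single libraries decided the values near 0: r for Cacna1d was -0.73 without mouse 50, and r for Cacna1g was -0.59 without mouse 29 and 0.09 without mouse 43. Cacna1e had an r of 0.16 at 24 months and 0.31 at 30 months, and Cacna1c of 0.33 and 0.69, with adjusted p from 0.116 to 0.752 in exact permutation tests. Single mice decided the count of relations past the threshold, which became 4 when mouse 21 was left out, 2 for mouse 43 and 1 for mouse 29. At 24 months Cacna1d, Cacna1h and Cacna1g were also correlated with other lists. With the mean log2 CPM of fat cell genes r was -0.80 for Cacna1d, -0.78 for Cacna1h and -0.63 for Cacna1g. With that of immune genes r was 0.76, 0.76 and 0.63 in the same order. For Cacna1s itself r was 0.90 and -0.87 with these lists. Mouse 43, highest in muscle RNA at 24 months, also had the highest fat cell mean (4.46) and the lowest immune mean (3.97). These lists and muscle therefore cannot be told apart here.

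Auxiliary subunits travel with the alpha subunits to the membrane. Genes were listed as such by family symbol, and not every Cacng gene listed is an established subunit of calcium channels. Of the 16 genes listed, 12 passed the filter, 0 had an adjusted p under 0.05 in edgeR, and at an unadjusted p under 0.05 there was 1 lower gene, Cacnb4, and 0 higher genes. With 7.18% of all genes lower and 4.86% higher at that level, 1 gene of 12 is close to the background and is no result about the subunits. Their median log2 change was 0.11, beside 0.01 over all genes, with 9 of 12 above 0. The most abundant were Cacnb3, a beta subunit (39.8 ± 3.75 and 43.3 ± 10.6 CPM, mean and SD, n = 8 mice), Cacna2d1 (38.0 ± 19.9 and 37.2 ± 13.6 CPM) and Cacnb1 (18.7 ± 8.98 and 19.1 ± 6.95 CPM). Cacnb4, a beta subunit best known from brain, went from 7.99 ± 0.967 to 6.58 ± 1.15 CPM, lower in 7 of 8 mice (log2 change -0.29, standard error 0.12, adjusted p = 0.382 in edgeR). Cacng1, the gamma subunit of the muscle channel, had the highest log2 change of the 12, 0.80 (standard error 0.53).

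The 15 genes of excitation-contraction coupling all passed the filter and all had log2 changes above 0, with a median of 0.49, but 0 were past an adjusted or an unadjusted p of 0.05 in either direction. The sum of the 15 went from 372.9 to 4442.8 CPM at 24 months and from 540.1 to 3231.3 at 30 months. Atp2a1, the calcium pump of fast muscle, had the highest level (511.2 ± 629.8 and 757.1 ± 516.4 CPM, SD, n = 8 mice), followed by Ryr1 (134.4 ± 123.8 and 162.7 ± 90.8) and Srl (125.3 ± 127.9 and 138.3 ± 76.0). The SD was of the order of the mean for each of these 3 genes. The 20 muscle genes likewise had 20 changes above 0, with a median of 0.74, and 0 past an unadjusted p of 0.05. All these genes come from the same 8 pairs of biopsies, so their counts above 0 are not separate observations. The mean log2 CPM of the 15 coupling genes rose in 6 of 8 mice (mean change 0.57, SD 1.79), and the muscle index rose in 5.

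**Figure D5:**
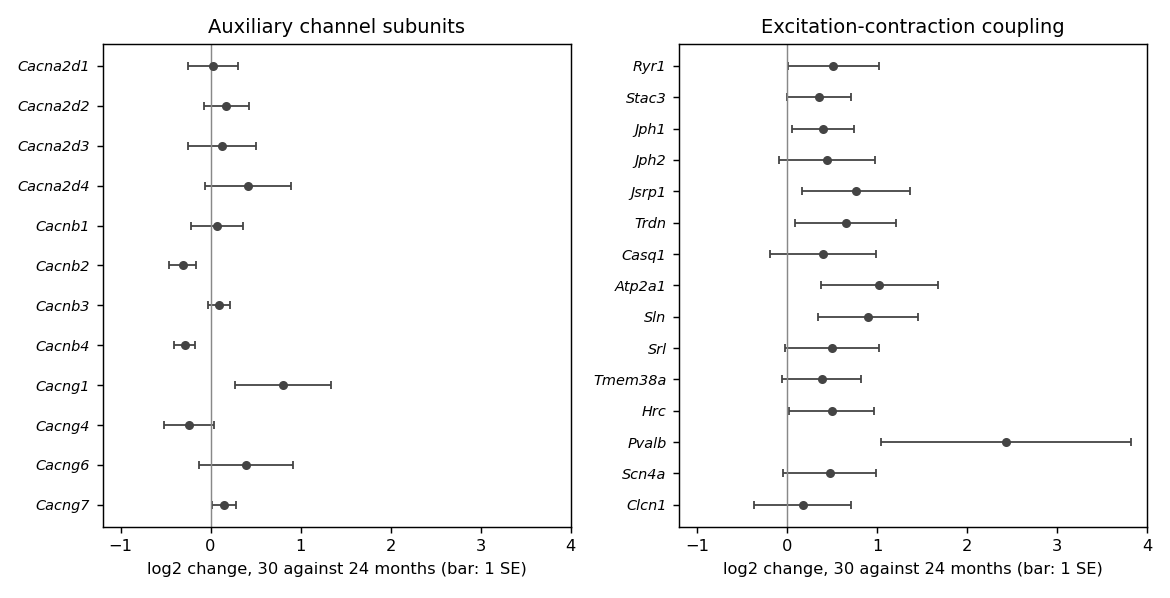
Fitted log2 change from 24 to 30 months with 1 standard error for the 12 auxiliary subunits that passed the filter (left) and the 15 genes of excitation-contraction coupling (right). The 15 coupling genes all lie above 0 with wide bars, and Cacnb2, Cacnb4 and Cacng4 are the auxiliary subunits below 0.

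Among 11 regulators of the channels, 11 passed the filter, 0 were past the adjusted threshold and 1 was lower at an unadjusted p under 0.05, beside 7.18% of all genes, so the count is close to the background and is no result about the regulators. That gene, Gem, encodes a small GTPase that inhibits the channels. It went from 21.4 ± 4.10 to 17.9 ± 2.54 CPM (SD, n = 8 mice), lower in 7 of 8 mice, with a log2 change of -0.25 (standard error 0.08, adjusted p = 0.302 in edgeR). The median log2 change of the 11 was -0.08, with 3 above 0.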

How the data were processed

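RNA from ear biopsies was sequenced in single-end mode from TruSeq v2 libraries, a kit that does not mark strand. The authors aligned the reads to GRCm38 with TopHat and assigned them to genes by HTSeq, later by featureCounts. The deposited values are these raw counts, not normalized. The submitters' processing notes name TopHat2 2.1.0, HTSeq 0.6.1p1 and CASAVA 1.8.4. The 5 summary lines of the table (18.7% to 21.1% of a library) were left out. GENCODE M21 (GRCm38) gave symbols, positions and exon lengths for 45143 of the 45706 identifiers, and RefSeq (GRCm38.p6) the promoter windows.

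Counts were fitted across all genes in R 4.3.3 with edgeR 4.0.16 (TMM, filterByExpr, quasi-likelihood test) and a block for each mouse, because both biopsies come from 1 animal. The deviations from the age means had a median correlation of -0.02 within a mouse and 0.01 between mice. P-values were adjusted by the Benjamini-Hochberg method, at a threshold of 0.05. The log2 CPM used a prior count of 1. Relations to the muscle index used exact permutation of all 40320 orders of 8 mice (Python 3.11.15, numpy 2.4.6, scipy 1.17.1). Both were tested on simulated data. DESeq2 1.42.0, its size factors, no filter, no block, exact age, a muscle covariate, other index definitions and leaving out each mouse were the alternatives.

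The members and gene lists were chosen with earlier results of these data known. Named by rule were all members, the 3 most abundant auxiliary subunits and coupling genes and the genes most like each member. Other genes named, the partners of Cacna1s among them, were chosen after their values were seen. Some items of the lists are not reported here. Library replicates are separate biopsies, and the sources used here name no sequencing batch. Exon overlaps without strand leave Cacna1a, Cacna1d, Cacna1h and Cacna1s partly uncertain (435, 589, 158 and 1309 shared bases).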

Additional observations from a re-analysis of the deposited data

Results flagged for a closer look

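Of 24 groups of 8 values examined (7 tested Cacna1 genes and the muscle index, at each age and as changes), 1 held a value far from the others by Dixon's criterion, where chance gives about 1.2. It was Cacna1a at 24 months, where mouse 43 had 3.12 log2 CPM and the other 7 mice 2.30 to 2.65, so that the gap to the nearest mouse took 0.573 of the whole range. The same library had the highest skeletal muscle index of the 16, 8.84, and the part of muscle RNA in this value was not tested.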

How the results depend on the processing

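Between 24 and 30 months, 0 genes were past the adjusted threshold in edgeR with the mouse as a block and 228 were in DESeq2's Wald test (77 higher, 151 lower). The count was 3 without the block, so that the paired fit called fewer, 8 with the muscle index as a covariate, and 0 with DESeq2 size factors, no filter, exact age and any mouse left out. Why the tools differ was not tested. The number of relations to the muscle index past the threshold, 0 of 12, became 3 with the log2 of the summed CPM as the index and 4 with CPM by plain totals, and ranged from 0 to 4 with each mouse left out. The cause was not tested. The log2 changes of Cacna1d, Cacna1e, Cacna1g and Cacna1h kept their sign in all 14 alternative fits, that of Cacna1s in all but the one with the muscle covariate, and those of Cacna1a and Cacna1c, close to 0, turned in 6 and 4. With 0 to 10 reads per library, no change of Cacna1b, Cacna1f or Cacna1i could be measured.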
